A study of Mus musculus with 12 samples.

Results

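Peroxiredoxins and glutathione peroxidases remove hydrogen peroxide and lipid peroxides. The genes described here are *Prdx1* to *Prdx6*, the glutathione peroxidases *Gpx1* and *Gpx4*, the thioredoxin *Txn1* and the glutathione transferase *Gstm1*. They were chosen by name, with earlier results of these data known. They are 10 of the 55487 genes in the count table, and all 10 were among the 15425 genes that passed the filter on low counts. Bulk mRNA was sequenced from CD11b-positive cells of the cerebral cortex of 12 male mice, with 3 mice in each of 4 groups. WT mice and AppNL-G-F mice, a knock-in model that carries the Swedish, Iberian and Arctic mutations in *App*, received intravenous PBS (veh) or 10 mg/kg rh Bri2 BRICHOS R221E, a recombinant human form of a molecular chaperone domain. Mice of every group received 24 injections over 12 weeks from 9 months of age, followed by 4 weeks without treatment. The label calls the cells microglial, but the gate is a single surface protein that border macrophages and neutrophils also carry.

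Peroxiredoxins react with peroxide through a peroxidatic cysteine. Thioredoxin then restores it in the typical 2-Cys enzymes *Prdx1* to *Prdx3* and the atypical 2-Cys enzyme *Prdx5*. *Prdx4* is also a typical 2-Cys enzyme but lies in the endoplasmic reticulum. *Prdx6* is the 1-Cys member and takes its electrons from glutathione. *Gpx1* and *Gpx4* use selenocysteine in place of cysteine and glutathione as the electron donor, and *Gpx4* acts on phospholipid peroxides and protects cells from ferroptosis. In the brain, microglia make oxidants themselves when activated, and astrocytes are known for a large glutathione system.

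The coding bases around the catalytic residue are shown because they define the families, with the catalytic codons in capitals. They were read 5′ to 3′ on the coding strand of the longest annotated reading frame (GENCODE M21, GRCm38). In the 6 peroxiredoxins, the window runs from a proline codon to the peroxidatic cysteine codon and was found by the residue pattern proline, any 3 residues, threonine, any 2 residues and cysteine, which matched once in each frame.
Prdx1: cctcttgactttacttttgtgTGT
Prdx2: ccactggacttcacttttgttTGC
Prdx3: cctttggatttcacatttgtgTGT
Prdx4: ccactggatttcacctttgtgTGT
Prdx5: cctggggcatttacacctggcTGT
Prdx6: ccacgggactttaccccagtgTGC
Gpx1: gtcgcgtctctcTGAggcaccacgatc
Gpx4: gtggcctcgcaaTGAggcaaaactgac
Txn1: acgtggTGTggacctTGCaaaatg
The cysteine codon lies at chr4:116691823-116691825 in *Prdx1* (exon 3, plus strand), chr8:84970483-84970485 in *Prdx2* (exon 3, plus strand), chr19:60870127-60870129 in *Prdx3* (exon 4, minus strand), chrX:155332460-155332462 in *Prdx4* (exon 3, minus strand), chr19:6907988-6907990 in *Prdx5* (exon 2, minus strand) and chr1:161247368-161247370 in *Prdx6* (exon 2, minus strand). In *Gpx1* (chr9:108339451-108339453, exon 1) and *Gpx4* (chr10:80054737-80054739, exon 3), both on the plus strand, the codon in capitals is the in-frame TGA that the annotation marks as selenocysteine. It is codon 47 of 201 in *Gpx1* and codon 129 of 253 in the longest *Gpx4* frame. In *Txn1*, the capitals mark the pair of cysteine codons of the active site (chr4:57951821-57951832, exon 2, minus strand).

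Library totals ran from 12433402 to 17889654 counts, and any 2 mice of a group differed beyond counting noise (chi-square over its degrees of freedom 5.84 to 34.5). Levels are CPM, a gene's share of the counts of its library, scaled with TMM factors, and fold changes come from edgeR's quasi-likelihood test on all 12 libraries with Benjamini-Hochberg adjustment over the 15425 tested genes. Each replicate is a separate mouse. The summed level of 8 microglial markers was between 26760 and 31235 CPM in every library. Of the other lists, 12 of 12 astrocyte markers were higher in veh-treated AppNL-G-F than veh-treated WT mice, and none of them was at 0 throughout. Lower calls in the same comparison were made for 5 of 5 neutrophil, 5 of 6 border macrophage, 5 of 6 endothelial, 4 of 7 neuron, 2 of 6 oligodendrocyte and 1 of 6 mural markers, with none for choroid plexus, lymphocyte or erythrocyte markers. Of 4 oligodendrocyte precursor markers, 1 was higher, and of 8 microglial markers, 2 were higher and 5 lower. In bulk samples, fewer cells of a type and less RNA per cell cannot be told apart. The part of these lists in the results below was not tested. For the astrocyte markers, relations to the genes and a fit with their score as a covariate are given below.

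Corrected for exon length, *Gpx1* had the highest level of the 10 genes in veh-treated WT mice, with 101 ± 2.99 RPKM (SD, n = 3), above 97.8% of tested genes. *Gpx4* (49.0 ± 0.985 RPKM), *Prdx1* (47.8 ± 1.40) and *Prdx5* (45.5 ± 3.595) followed. Neighbours among these 3 differed by less than the larger of their SDs. *Prdx3* (28.4 ± 1.43 RPKM) and *Txn1* (27.5 ± 1.76) also lay within their spread of each other, followed by *Gstm1* (23.1 ± 4.13) and *Prdx2* (18.03 ± 0.674). The lowest levels were those of *Prdx4* (10.1 ± 1.07 RPKM) and *Prdx6* (9.89 ± 1.04), which did not differ beyond their spread. In veh-treated AppNL-G-F mice, *Prdx4* reached 32.7 ± 1.84 RPKM and *Prdx6* 38.3 ± 12.8, and the lowest of the 10 was *Prdx2* with 25.3 ± 1.42. The order depends on the length used, that of all annotated exons merged (1441 bases for *Gpx1*, 3043 for *Prdx1* and 4804 for *Prdx6*). Without the correction, *Gpx1* (145.6 ± 4.31 CPM) and *Prdx1* (145.5 ± 4.26 CPM) did not differ beyond their spread in veh-treated WT mice.

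Comparison of veh-treated AppNL-G-F with veh-treated WT mice asks what the knock-in alone does to these genes. Of the 10 genes, 8 were higher in AppNL-G-F mice and none was lower, and the 3 libraries of each group did not overlap for any of the 10. Among all tested genes, 37% were called in this comparison (20.1% higher and 16.9% lower) and 50.9% had groups that did not overlap. The median log2 fold change was 0.53 over the 10 genes and -0.02 over all genes. The list was chosen with earlier results of these data known. The study had already reported *Prdx6* and *Gstm1* as higher in these AppNL-G-F samples, so the counts and the median are not independent evidence. *Prdx6*, *Prdx4* and *Gstm1* differed the most, and *Gpx1* and *Prdx5* did not pass the test.

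**Figure D1:**
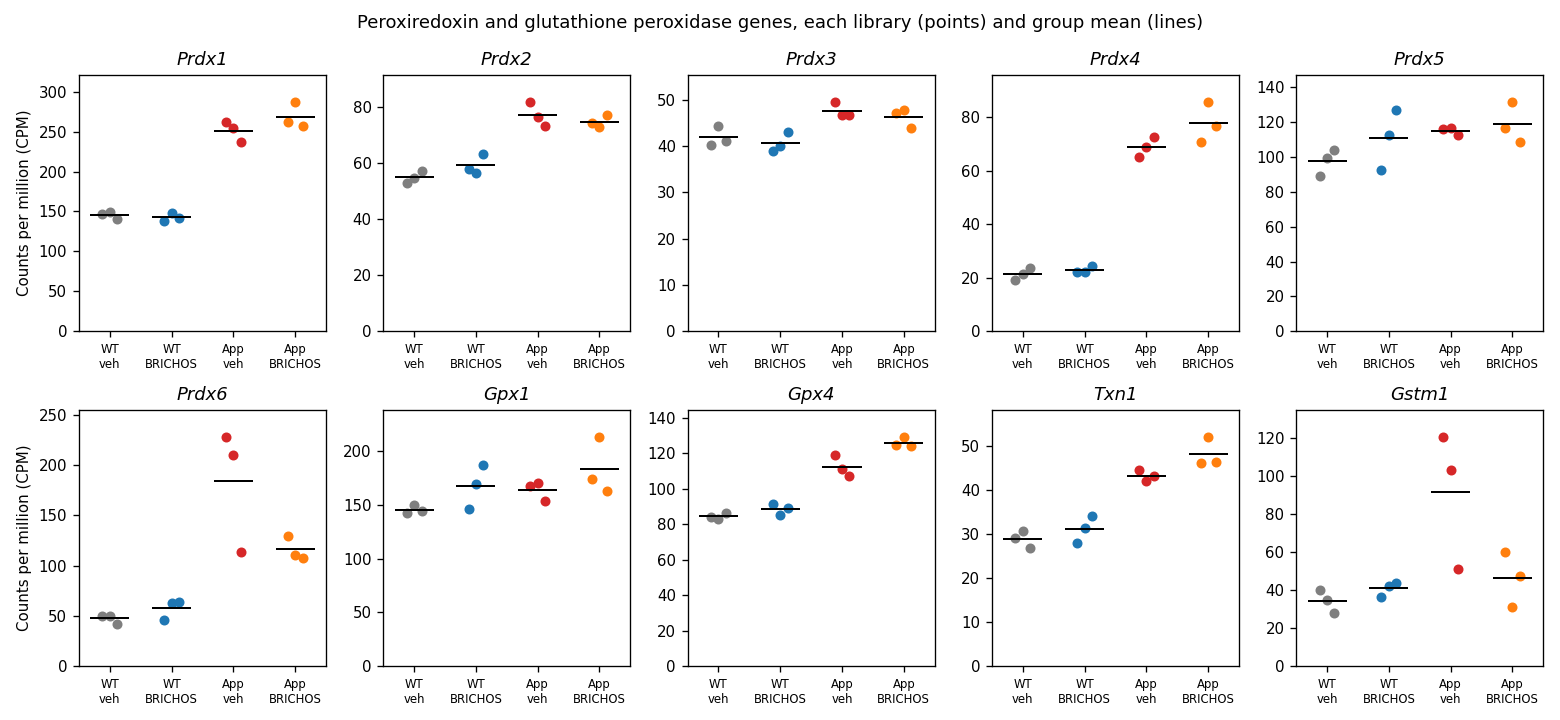
Level of each of the 10 genes in CPM (vertical axis, from 0) in the 4 groups (horizontal axis), with a point for each library and a line at the group mean. All 3 veh-treated AppNL-G-F libraries lie above all 3 veh-treated WT libraries in every panel, and 1 of them is far below the other two for Prdx6 and Gstm1.

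Among the typical 2-Cys peroxiredoxins, the cytosolic *Prdx1* measured 147, 149 and 141 CPM in veh-treated WT mice and 262, 254 and 237 CPM in veh-treated AppNL-G-F mice. Every AppNL-G-F library was well above every WT library, with a log2 fold change of 0.79 ± 0.06 (SE; edgeR adjusted p = 9.31e-07). *Prdx2*, the other cytosolic enzyme and an abundant protein of red blood cells, measured 53.1, 54.7 and 57.2 CPM in WT mice against 81.8, 76.4 and 73.2 CPM. Its log2 fold change was 0.49 ± 0.06 (edgeR adjusted p = 7.78e-05). The mitochondrial *Prdx3* measured 40.3, 44.4 and 41.2 CPM against 49.5, 46.8 and 46.8 CPM. The groups did not overlap, but the gap was narrow, and the log2 fold change of 0.18 ± 0.06 had an edgeR adjusted p of 0.0393, and the call did not hold in 5 of the 6 fits that each left out 1 library.

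*Prdx4*, the peroxiredoxin of the endoplasmic reticulum, where it takes part in oxidative protein folding, showed the clearest separation. It measured 19.0, 21.4 and 23.5 CPM in veh-treated WT mice and 65.0, 68.7 and 72.8 CPM in veh-treated AppNL-G-F mice, a 3.23-fold difference (95% confidence interval 2.80 to 3.73; edgeR adjusted p = 1.24e-07). The spread within each group was small beside the gap. The atypical *Prdx5*, found in mitochondria, peroxisomes and cytosol, measured 88.9, 99.1 and 104 CPM against 116, 116 and 112 CPM. Its log2 fold change was 0.24 (95% confidence interval 0.0048 to 0.47), and the edgeR adjusted p was 0.101.

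The 1-Cys enzyme *Prdx6*, which also has phospholipase A2 activity, measured 50.4, 50.4 and 41.7 CPM in veh-treated WT mice. In veh-treated AppNL-G-F mice it measured 228, 209.7 and 114 CPM. Its fold change was the largest of the 10 genes, at 3.87 (95% confidence interval 2.75 to 5.45; edgeR adjusted p = 4.22e-05). The AppNL-G-F libraries were far apart, however, and in CPM, though not on the log2 scale, mouse 3 was nearer to the WT mice than to the rest of its group.

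Of the glutathione peroxidases, *Gpx4* measured 84.2, 83.0 and 86.4 CPM in veh-treated WT mice against 119, 111 and 107 CPM in veh-treated AppNL-G-F mice. The WT libraries lay within a few CPM of each other, and the log2 fold change was 0.41 ± 0.05 (edgeR adjusted p = 6.19e-05). The cytosolic *Gpx1* measured 142, 150.4 and 144 CPM against 168, 171 and 154 CPM. Its libraries did not overlap, but the log2 fold change of 0.17 (95% confidence interval -0.06 to 0.40) did not pass the test (edgeR adjusted p = 0.219).

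*Txn1*, which reduces oxidised peroxiredoxins, measured 29.2, 30.7 and 27.0 CPM in veh-treated WT mice against 44.7, 42.1 and 43.1 CPM, a log2 fold change of 0.58 ± 0.08 (edgeR adjusted p = 0.000221). *Gstm1*, which conjugates glutathione to electrophiles, measured 39.9, 34.6 and 27.8 CPM against 120.2, 103 and 50.9 CPM. The same AppNL-G-F mouse was low as for *Prdx6*, and the log2 fold change was 1.42 ± 0.30 (edgeR adjusted p = 0.00295).

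The same strain comparison among BRICHOS-treated mice shares no library with the veh comparison. Of the 10 genes, 7 were higher in AppNL-G-F mice and none was lower, and 7 had groups that did not overlap. The shares of all tested genes were 42.5% called, 20.8% higher, 21.8% lower and 51.7% without overlap. Of the marker lists, 1 of 12 astrocyte markers was higher in this comparison. Lower calls were made for 6 of 6 choroid plexus, 6 of 6 mural, 5 of 6 border macrophage, 5 of 6 endothelial, 5 of 7 neuron, 4 of 5 erythrocyte, 3 of 5 neutrophil and 3 of 3 lymphocyte markers and for none of 6 oligodendrocyte markers. Of 4 oligodendrocyte precursor markers, 1 was higher and 2 lower, and of 8 microglial markers, 2 were higher and 4 lower. The part of these lists was not tested, and the astrocyte markers are taken up below. The difference was 0.91 ± 0.06 on the log2 scale for *Prdx1* (edgeR adjusted p = 2.62e-07), 1.76 ± 0.09 for *Prdx4* (6.99e-08), 0.63 ± 0.08 for *Txn1* (9.79e-05), 0.51 ± 0.05 for *Gpx4* (1.05e-05) and 0.34 ± 0.06 for *Prdx2* (0.000988). *Prdx3* again passed narrowly, at 0.19 ± 0.06 (edgeR adjusted p = 0.0320), a call that did not hold in 4 of the 6 fits that each left out 1 library. *Prdx6* differed by 1.01 ± 0.22 (edgeR adjusted p = 0.00334), beside 1.95 ± 0.23 in veh-treated mice. *Gstm1* measured 36.5, 42.1 and 43.8 CPM in BRICHOS-treated WT mice and 59.7, 30.9 and 47.5 CPM in BRICHOS-treated AppNL-G-F mice. These groups overlapped, and the log2 fold change of 0.17 had a 95% confidence interval of -0.47 to 0.81 (edgeR adjusted p = 0.663). *Prdx5* (0.10, edgeR adjusted p = 0.466) and *Gpx1* (0.13, edgeR adjusted p = 0.326) did not pass either. *Gpx1* measured 175, 213 and 163 CPM in BRICHOS-treated AppNL-G-F mice, with mouse 2 apart from the other two, as it was for the heme oxygenase *Hmox1* (124, 325 and 122 CPM). Its log2 fold change ranged from 0.016 without that mouse to 0.22 without BRICHOS-treated WT mouse 3.

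**Figure D2:**
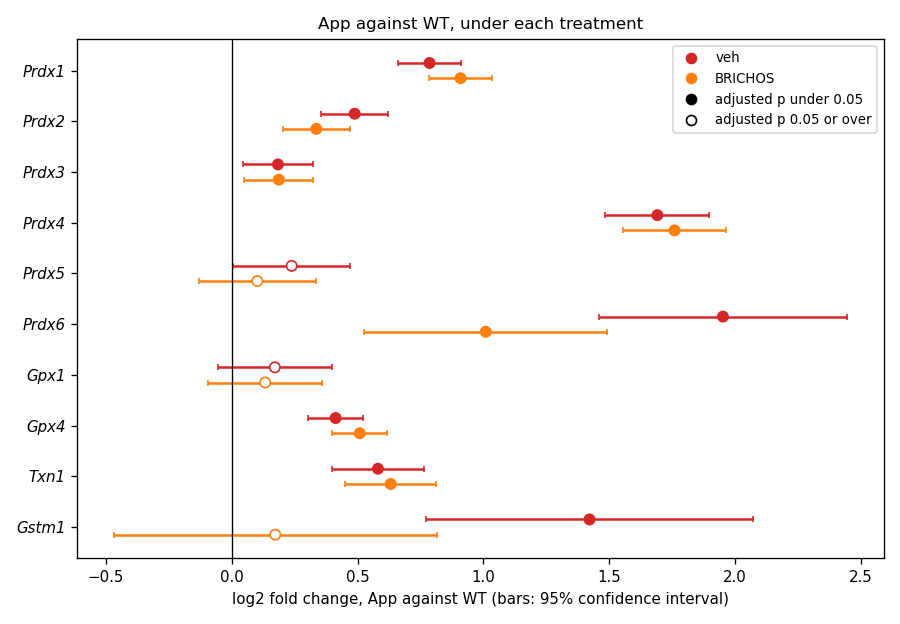
Log2 fold change of AppNL-G-F against WT mice (horizontal axis) for each gene, in veh-treated (red) and BRICHOS-treated mice (orange), with 95% confidence intervals and filled points where the adjusted p-value was under 0.05. Prdx4 lies at 1.69 and 1.76 in the 2 comparisons, while Prdx6 lies at 1.95 and 1.01 and Gstm1 at 1.42 and 0.17.

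Comparison of BRICHOS-treated with veh-treated AppNL-G-F mice asks whether the treatment moved these genes in the model. None of the 10 genes passed the edgeR test after adjustment, where 0.00648% of all genes did, a single gene. At an unadjusted p under 0.05, 3 of the 10 genes passed, *Gpx4* higher and *Prdx6* and *Gstm1* lower, beside 10.8% of all genes. The groups did not overlap for *Gpx4* and *Txn1*, beside 13.5% of all genes. *Prdx6* measured 129, 111 and 108 CPM in BRICHOS-treated AppNL-G-F mice. The lowest veh-treated library, with 114 CPM, lay inside that range, and the log2 fold change was -0.66 (95% confidence interval -1.14 to -0.19; edgeR adjusted p = 0.319). *Gstm1* had a log2 fold change of -0.99 (95% confidence interval -1.63 to -0.35; edgeR adjusted p = 0.294), and its groups overlapped as well. The study singled out both genes on these same samples, so they are not independent evidence of a direction.

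Whether both genes passed depended on 1 library. Without veh-treated AppNL-G-F mouse 3, *Prdx6* (log2 fold change -0.91, edgeR adjusted p = 0.0208) and *Gstm1* (-1.28, edgeR adjusted p = 0.0310) both passed in AppNL-G-F mice. In that fit 162 of 15907 genes were called, 160 of them lower, beside 1 gene with all libraries. With the other two veh-treated AppNL-G-F libraries left out instead, a choice made after seeing the data that leaves 1 library in the group and takes its spread from the others, the values were 0.04 for *Prdx6* and -0.14 for *Gstm1*. A DESeq2 Wald test on all libraries also called *Gstm1* (-0.97, adjusted p = 0.0418), beside 125 of 29173 genes.

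*Gpx4* measured 125, 129 and 124 CPM in BRICHOS-treated AppNL-G-F mice, all above the highest veh-treated library, with a log2 fold change of 0.16 ± 0.05 (edgeR adjusted p = 0.294). *Txn1* measured 46.2, 52.1 and 46.4 CPM, also above every veh-treated library (log2 fold change 0.16 ± 0.08, edgeR adjusted p = 0.546). *Prdx4* measured 70.8, 85.5 and 76.5 CPM and *Prdx1* 262, 287 and 257 CPM, which overlapped with the veh-treated libraries. The 95% confidence intervals of the log2 fold change were -0.02 to 0.37 for *Prdx4*, -0.02 to 0.22 for *Prdx1*, -0.18 to 0.09 for *Prdx2*, -0.18 to 0.09 for *Prdx3*, -0.18 to 0.28 for *Prdx5* and -0.06 to 0.39 for *Gpx1*.

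In WT mice, none of the 10 genes passed in the comparison of BRICHOS with veh (edgeR, 0% of all genes), none had an unadjusted p under 0.05 (11.4% of all genes) and none had groups that did not overlap (17.5%). DESeq2 on all libraries called none of the 10 either, beside 84 of 29173 genes. The log2 fold changes lay between -0.05 for *Prdx3* and 0.28 for *Prdx6*. *Prdx6* measured 45.9, 62.9 and 64.3 CPM in BRICHOS-treated WT mice, with 1 library inside the veh range and the others above it (95% confidence interval -0.21 to 0.77). *Gpx1* measured 146, 169 and 187 CPM (log2 fold change 0.20, edgeR adjusted p = 0.495).

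Whether the treatment effect differed between the strains was tested directly with an interaction contrast. None of the 10 genes passed (edgeR, 0.00648% of all genes), and 2 had an unadjusted p under 0.05 (14.8% of all genes). These were *Prdx6* (-0.94 ± 0.31 on the log2 scale, adjusted p = 0.221) and *Gstm1* (-1.25 ± 0.41, adjusted p = 0.225). Without veh-treated AppNL-G-F mouse 3, *Prdx6* passed (-1.19, edgeR adjusted p = 0.0396), as did 88 of 15907 genes, beside 1 with all libraries.

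**Figure D3:**
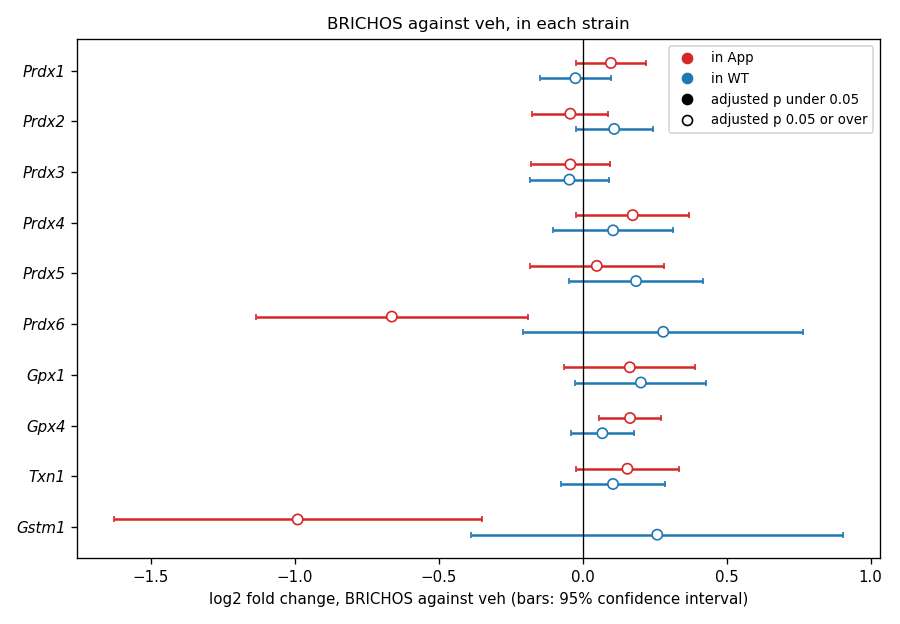
Log2 fold change of BRICHOS- against veh-treated mice (horizontal axis) for each gene, in AppNL-G-F (red) and WT mice (blue), with 95% confidence intervals. No point is filled, since no adjusted p-value was under 0.05, and Prdx6 and Gstm1 in AppNL-G-F mice lie lowest, at -0.66 and -0.99.

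The astrocyte markers moved with *Prdx6* and *Gstm1*. The summed level of the 12 markers was 659, 618 and 463 CPM in veh-treated WT mice and 465, 879 and 904 CPM in BRICHOS-treated WT mice. In AppNL-G-F mice, it was 4824, 4310 and 1499 CPM after veh and 2019, 694 and 1329 CPM after BRICHOS. The same mouse that was low for *Prdx6* and *Gstm1* was thus low for the markers. *Gfap*, the intermediate filament of astrocytes, had a mean of 35.7 CPM in veh-treated WT and 628 CPM in veh-treated AppNL-G-F mice. In AppNL-G-F mice, 12 of 12 markers were lower after BRICHOS at an unadjusted p under 0.05 and none after adjustment (edgeR, lowest adjusted p = 0.294).

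Within each strain, the level of each gene was related to the mean log2 CPM of the astrocyte markers over 6 libraries, 20 relations in all. The permutations exchanged veh- and BRICHOS-treated mice freely, so a treatment difference shared by a gene and the markers counts toward a relation. *Gstm1* in AppNL-G-F mice had Pearson's r = 0.996 (exact permutation p = 0.00139, adjusted p = 0.00926) and Spearman's rho = 1.0 (p = 0.00278, adjusted p = 0.0185), and r = 0.999 without the 2 libraries farthest from the median. Within its veh-treated and BRICHOS-treated groups of 3, r was 0.997 and 1.0. *Prdx6* had r = 0.982 in WT mice (exact permutation p = 0.00139, adjusted p = 0.00926) with rho = 1.0 (p = 0.00278, adjusted p = 0.0185), and r = 0.890 without the 2 farthest libraries. In AppNL-G-F mice, *Prdx6* had r = 0.913 (exact permutation p = 0.00694, adjusted p = 0.0278) with rho = 0.943 (p = 0.0167, adjusted p = 0.0556), and r = 0.997 without the 2 farthest libraries. Its r was 0.974 and 0.9996 within the WT veh and BRICHOS groups and 0.9997 and 0.678 within those of AppNL-G-F mice.

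*Prdx4* went the other way in AppNL-G-F mice, with r = -0.956 (exact permutation p = 0.00139, adjusted p = 0.00926), rho = -1.0 (p = 0.00278, adjusted p = 0.0185) and r = -0.878 without the 2 farthest libraries. Its r was -0.910 after veh and -0.998 after BRICHOS. *Txn1* in WT mice had r = 0.919 (exact permutation p = 0.00694, adjusted p = 0.0278) with rho = 0.943 (p = 0.0167, adjusted p = 0.0556), and r = 0.806 without the 2 farthest libraries. Within its veh and BRICHOS groups, r was 0.810 and 0.943. The other 15 relations did not pass after adjustment, among them *Gstm1* in WT mice (r = 0.816, exact permutation p = 0.0375, adjusted p = 0.107; rho = 0.943). Relations to the other marker lists were not tested. In WT mice, the neuron and erythrocyte scores were also highest in BRICHOS-treated mouse 3 (1.94 and 5.12). They were lowest in veh-treated mouse 3 (neuron, 1.05) and BRICHOS-treated mouse 1 (erythrocyte, 2.89). The oligodendrocyte score was lowest in BRICHOS-treated mouse 3 (7.76). In AppNL-G-F mice, the microglia score put the libraries in exactly the reverse order of the astrocyte score. It rose from 10.77 in veh-treated mouse 1 to 10.92 in BRICHOS-treated mouse 2. The relations of neither strain can thus be taken as particular to astrocyte markers.

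**Figure D4:**
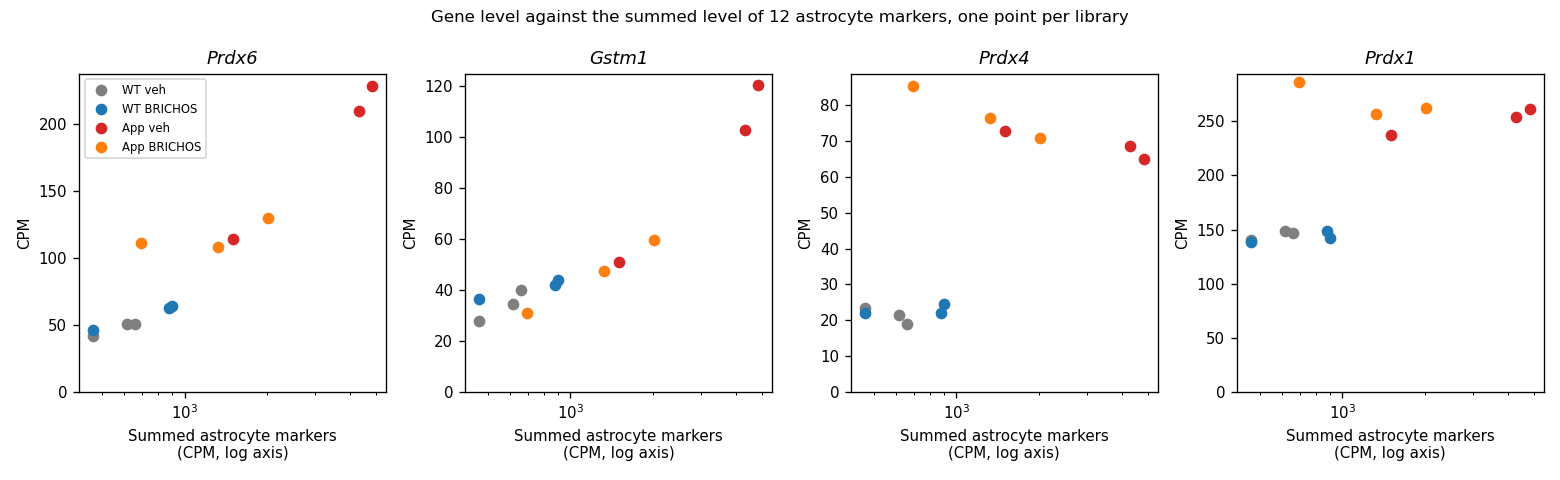
Level of Prdx6, Gstm1, Prdx4 and Prdx1 (CPM, vertical axis from 0) against the summed level of 12 astrocyte markers (CPM, log axis), with a point for each of the 12 libraries, coloured by group. Prdx6 and Gstm1 are highest in the 2 libraries with 4310 and 4824 CPM of markers. Prdx4, Prdx1 and Prdx6 are higher in every AppNL-G-F library than in every WT library, and Gstm1 is not.

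With the astrocyte marker score as a covariate, the strain difference of *Gstm1* in veh-treated mice was 0.06 on the log2 scale (edgeR adjusted p = 0.888), and that of *Prdx6* was 1.02 (edgeR adjusted p = 0.00704). The scores of the veh-treated groups did not overlap (4.28 to 4.77 in WT and 5.77 to 7.41 in AppNL-G-F mice). In veh-treated mice the score and the strain therefore cannot be told apart, whether or not a gene kept its call. In BRICHOS-treated mice, the covariate left *Prdx6* at 0.87 (edgeR adjusted p = 0.000248). The treatment difference in AppNL-G-F mice was -0.07 for *Prdx6* and -0.18 for *Gstm1* with the covariate. The score itself was mostly lower after BRICHOS in these mice (7.41, 7.26 and 5.77 after veh, 6.18, 4.59 and 5.62 after BRICHOS). This fit therefore cannot separate the treatment from the score. The strain differences of *Prdx1* (0.74, edgeR adjusted p = 0.000519), *Prdx4* (1.90, 8.35e-06), *Gpx4* (0.41, 0.0116), *Txn1* (0.54, 0.0305) and *Prdx2* (0.39, 0.0287) in veh-treated mice kept their call, and 6 of the 10 genes were called in all, beside 2159 of 15425 genes (14.0%) in the same fit. With the 2 veh-treated AppNL-G-F libraries of the highest marker sums left out, 6 of the 10 genes were called as well, beside 2617 of 16380 genes, with *Prdx6* at 1.27 (edgeR adjusted p = 0.000807), while *Gstm1* (0.59, edgeR adjusted p = 0.206) and *Prdx3* (0.17, edgeR adjusted p = 0.292) were not.

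The genes whose log2 CPM was most like that of each member over the 12 libraries are given as a description, since the libraries share their groups. They were *Eif4b*, *Eef1a1* and *Cd274* for *Prdx1* (Pearson's r from 0.996 to 0.997) and *Pgm1*, *Rragd* and *Ghr* for *Prdx2* (0.981 to 0.986). For *Prdx3* they were *Sec61g*, *Psma5* and *Sec11a* (0.959 to 0.968), for *Prdx4* *Glb1*, *Pkm* and *Il3ra* (0.996 to 0.997), and for *Prdx5* *Nfkbid*, *Mis18a* and *Stub1* (0.912 to 0.960). *Slc25a4*, *S100a1* and *Mfge8* were closest to *Prdx6* (0.981 to 0.983), and *Asrgl1*, *Sparcl1* and *Fam107a* to *Gstm1* (0.985 to 0.996). For the glutathione peroxidases, they were *Cnbp*, *Gdf15* and *Snhg8* with *Gpx1* (0.909 to 0.928) and *Rragc*, *Rrp1* and *Gde1* with *Gpx4* (0.981 to 0.989). *Gabarap*, *Chmp4b* and *Ubl5* were closest to *Txn1* (0.987 to 0.990). After removal of the group means, the highest correlations between members over the 12 libraries were those of *Gpx1* with *Prdx5* (0.877), *Gstm1* with *Prdx6* (0.856) and *Gpx1* with *Txn1* (0.820), and the lowest was that of *Gstm1* with *Prdx4* (-0.717). The spread within groups was largest for *Gstm1* (SD 0.43 on the log2 scale) and *Prdx6* (0.32) and smallest for *Gpx4* (0.05).

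Some reads of a member could also come from another gene. *Prdx2* shares 173 exon bases with *Junb* and 177 with *Rnaseh2a* on the opposite strand, and *Prdx5* shares 409 with *Trmt112*. The libraries came from a stranded kit, but the strand setting of the counting is not given in the sources used here. *Junb* measured between 2425 and 3809 CPM in every library, and its veh-treated groups overlapped (2679 to 3148 CPM in WT and 2863 to 3796 CPM in AppNL-G-F mice). *Rnaseh2a* measured 11.9, 13.5 and 12.3 CPM in veh-treated WT and 14.6, 13.7 and 13.8 CPM in veh-treated AppNL-G-F mice. *Trmt112* measured 21.98, 27.2 and 22.5 CPM against 33.2, 30.7 and 27.6 CPM. Both were higher in AppNL-G-F mice without overlap, the direction of *Prdx2* and *Prdx5*, and their part in those differences was not tested. Of the 100-base windows of *Gpx4* transcripts, 25.2% also occur in another gene, chiefly the pseudogene *Gpx4-ps2*, which held 521 counts over all libraries against 18887 for *Gpx4*. *Gpx4-ps2* was also higher in veh-treated AppNL-G-F mice without overlap (1.78, 2.73 and 2.01 CPM against 3.95, 4.07 and 2.74 CPM), and its part in the *Gpx4* difference was not tested. The share was 5.86% for *Gstm1*, whose matching genes held at most 15 counts, and 0 for *Prdx3*, *Prdx4*, *Prdx6*, *Gpx1* and *Txn1*. The values of *Prdx2*, *Prdx5* and *Gpx4* are uncertain to that extent.

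Promoters (250 bases before to 50 after the start, RefSeq, GRCm38.p6) were searched for the antioxidant response element core that Nrf2 (*Nfe2l2*) binds, TGACNNNGC on both strands. A promoter was found for 9 of the 10 genes, 13 in all, and 1 of these, that of *Prdx1*, holds the core, beside 12.4% of 32851 promoters. The match is shown with the core in capitals, read on the strand opposite to the gene.
Prdx1 promoter: cgggggaTGACTCAGCgctttcc
It lies at chr4:116685466-116685474, beginning 133 bases before the start. Its first letters, TGACTCA, are also the motif of AP-1, which 5.2% of promoters hold.

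The partners of these enzymes were described from lists of 103 other antioxidant genes, of which 94 were tested. In veh-treated mice, 25 were higher and 9 lower in AppNL-G-F than in WT mice (median log2 fold change 0.13), and in BRICHOS-treated mice 27 were higher and 18 lower (median 0.07). The 34 genes called after veh were 36.2% of the list, beside 37% of all tested genes (20.1% higher and 16.9% lower), and the 45 called after BRICHOS were 47.9%, beside 42.5% (20.8% higher and 21.8% lower). The share called after veh was thus near that of all genes. The counts of the single lists below have the same background, and no list was tested as a set. None passed in either treatment comparison (edgeR). At an unadjusted p under 0.05, 15 of the 94 did in AppNL-G-F mice, beside 10.8% of all genes, and 12 of them were lower. In WT mice, 11 did (11.7%, beside 11.4% of all genes), and 10 of them were higher. By the same measure, 12 of 12 astrocyte, 5 of 6 endothelial and 3 of 6 mural markers were lower after BRICHOS in AppNL-G-F mice. In WT mice, 5 of 6 choroid plexus, 5 of 6 border macrophage, 3 of 4 oligodendrocyte precursor and 2 of 3 lymphocyte markers were higher. The part of these marker lists in the treatment counts was not tested. DESeq2 on all libraries called 1 gene of the list in each strain, beside 125 of 29173 genes in AppNL-G-F and 84 in WT mice.

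Of 16 tested partners of the peroxiredoxin system, 6 were higher and 3 lower in veh-treated AppNL-G-F mice, beside 20.1% and 16.9% of all tested genes. *Srxn1*, the sulfiredoxin that repairs overoxidised 2-Cys peroxiredoxins, had a log2 fold change of 1.19 ± 0.29 (13.3 ± 1.88 against 30.3 ± 10.3 CPM, SD, n = 3; edgeR adjusted p = 0.00756). *Txnrd1*, the cytosolic thioredoxin reductase, had 0.90 ± 0.23 (edgeR adjusted p = 0.00949), and the thioredoxin-related *Txndc17* 0.59 ± 0.07 (8.75e-05). *Txnip*, which binds and inhibits thioredoxin, was lower, at 965 ± 87.7 against 396 ± 17.5 CPM (log2 fold change -1.28 ± 0.10; edgeR adjusted p = 2.13e-06). *Txnrd3* (-0.60 ± 0.16, edgeR adjusted p = 0.0106) and the sestrin *Sesn1* (-0.54 ± 0.08, 0.000385) were also lower. In BRICHOS-treated mice, *Txnip* differed by -1.32 ± 0.10 (edgeR adjusted p = 1.51e-06) and *Srxn1* by 1.26 ± 0.29 (0.00477). *Txnrd3* did not pass there (-0.28 ± 0.15, edgeR adjusted p = 0.170).

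Among 3 other tested glutathione peroxidases, *Gpx3*, the secreted enzyme, was higher (1.24 ± 0.15, edgeR adjusted p = 4.86e-05). Of 16 tested genes for glutathione synthesis and recycling, 5 were higher and 2 lower, beside 20.1% and 16.9% of all tested genes. *Slc7a11*, the cystine importer that limits glutathione synthesis, measured 10.96, 11.2 and 8.79 CPM in veh-treated WT mice and 67.7, 65.2 and 25.04 CPM in veh-treated AppNL-G-F mice (log2 fold change 2.35 ± 0.35, edgeR adjusted p = 0.000298). Mouse 3 was low here as well. In BRICHOS-treated mice the *Slc7a11* difference was 0.83 ± 0.34 (edgeR adjusted p = 0.0704). *Pgd* (0.43 ± 0.06) and *Idh1* (0.34 ± 0.07), which supply NADPH, were higher. *Ggt5* (-1.38 ± 0.06), which breaks down extracellular glutathione conjugates, and *Gclc* (-0.38 ± 0.07), the catalytic subunit of the enzyme that makes its first intermediate, were lower (largest edgeR adjusted p of these 4, 0.00190).

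Of 5 superoxide dismutases and catalase, 2 were higher, the mitochondrial *Sod2* (0.62 ± 0.16, edgeR adjusted p = 0.00899) and the cytosolic *Sod1* (0.44 ± 0.10, 0.00499). *Sod1* did not pass between the strains after BRICHOS (0.22 ± 0.10, edgeR adjusted p = 0.0893). Of 18 other tested glutathione transferases, 4 were higher, beside 20.1% of all tested genes. Among them were *Gstm5* (1.04 ± 0.21), *Mgst3* (0.90 ± 0.14) and *Gstt3* (0.77 ± 0.18). The single lower one was *Gstm2* (-1.48 ± 0.32, edgeR adjusted p = 0.00381), with 1.73 ± 0.703 against 0.613 ± 0.0769 CPM, so *Gstm1* and *Gstm2* differed in opposite directions. *Gstm5* measured 56.4, 52.4 and 32.7 CPM in veh-treated AppNL-G-F mice, with mouse 3 low as well. Its strain difference after BRICHOS did not pass (0.41 ± 0.21, edgeR adjusted p = 0.142). Of 17 Nrf2 regulators and other targets, 5 were higher and none lower, beside 20.1% and 16.9% of all tested genes. They include *Nfe2l2*, which encodes Nrf2 itself (304 ± 5.21 against 622 ± 66.8 CPM; 1.03 ± 0.13, edgeR adjusted p = 0.000104), its partner *Maff* (2.03 ± 0.31, 0.000398) and the epoxide hydrolase *Ephx1* (2.04 ± 0.11, 1.07e-07).

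Of 19 genes for selenoprotein synthesis (which *Gpx1* and *Gpx4* depend on), other selenoproteins and methionine sulfoxide reductases, 2 were higher and 3 lower. The shares of all tested genes were 20.1% and 16.9%. *Msra* (0.59 ± 0.14), a reductase without selenocysteine, and *Selenon* (0.40 ± 0.08) were higher. *Secisbp2* (-0.33 ± 0.07, edgeR adjusted p = 0.00257) and *Eefsec* (-0.28 ± 0.08, 0.0149), both needed to read the TGA codon as selenocysteine, and the selenium carrier *Selenop* (-0.27 ± 0.06, 0.00479) were lower. *Eefsec* did not pass between the strains after BRICHOS (-0.17 ± 0.08, edgeR adjusted p = 0.101). Over all 94 genes, 16 were called in this comparison with the astrocyte score as a covariate, beside 14.0% of all genes, and 16 with the 2 veh-treated AppNL-G-F libraries of the highest marker sums left out, beside 2617 of 16380 genes.

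**Figure D5:**
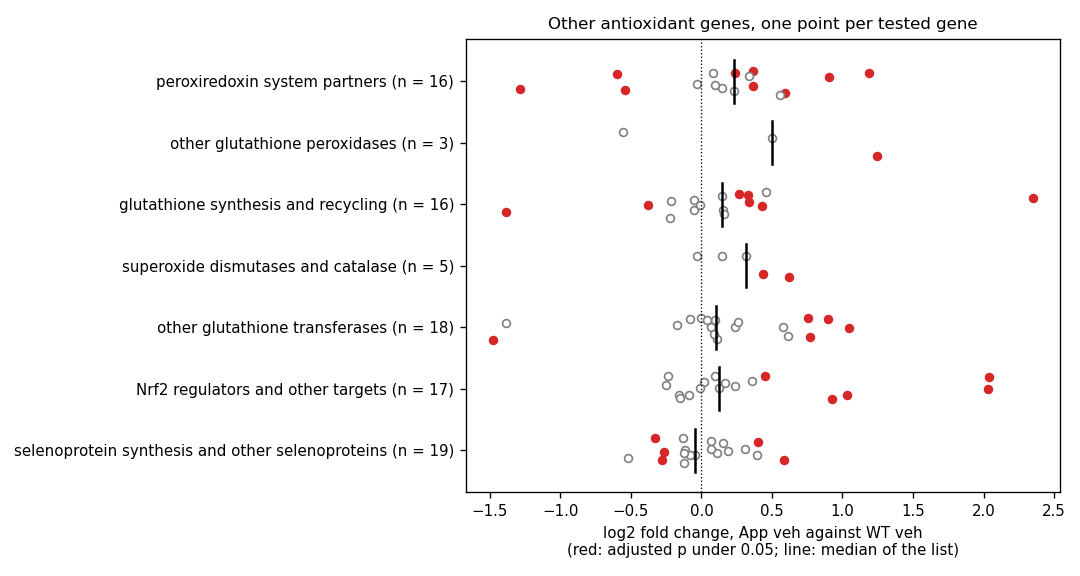
Log2 fold change of veh-treated AppNL-G-F against WT mice (horizontal axis) for each tested gene of 7 lists, with red points at an adjusted p-value under 0.05 and a black line at the median of each list. Of the red points, Ephx1, Maff and Slc7a11 lie above 2, and Txnip, Ggt5 and Gstm2 below -1.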

How the data were processed

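RNA-sequencing counts of 12 mice in 4 groups were used. According to the methods and labels, the authors trimmed reads with Cutadapt, used STAR for alignment to GRCm38 and featureCounts 1.5.1 for counting, and deposited raw counts per gene. The submitters' processing notes give STAR 2.6.1d, whereas the methods give another STAR version. Symbols were taken from GENCODE M21 for 55227 of 55487 genes. Genes were kept by filterByExpr with a minimum count of 10. TMM factors and a quasi-likelihood fit with 1 mean per group were computed in R 4.3.3 with edgeR 4.0.16, and an adjusted p-value under 0.05 was called. DESeq2 1.42.0 was the alternative. The standard error of a log2 fold change is its size over the root of F. Log2 CPM used a prior count of 2, and RPKM are CPM per kilobase of merged exons. Relations used exact two-sided permutation tests in scipy. Scripts were tested on simulated data. A total of 3 counts, the detection floor, is 0.169 to 0.227 CPM.

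The members and the lists of pathway and marker genes were chosen with earlier results of these data known. All members were named. Of each pathway list, up to 3 genes of the largest positive and up to 3 of the largest negative log2 fold change among those called in veh-treated AppNL-G-F against WT mice were named. For each member, the 3 tested genes with the highest correlation of log2 CPM were named. Marker lists were for microglia, border macrophages, astrocytes, oligodendrocytes and their precursors, neurons, endothelial and mural cells, choroid plexus, neutrophils, lymphocytes and erythrocytes. Alternatives were another normalization, DESeq2, no filter, a replicate block, an astrocyte score covariate and leaving out each mouse.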

Additional observations from a re-analysis of the deposited data

How the results depend on the processing

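Scaling with DESeq2 size factors in edgeR changed no call of the 10 genes in any comparison. With an absolute log2 fold change of at least 1 required as well, 3 of the 10 genes and 10 of the other antioxidant genes were called between the strains after veh, and 2 and 18 after BRICHOS. The share of all genes at this threshold was not computed, so these counts have no background. At an unadjusted p under 0.05, the calls were 3 and 15 for the treatment in AppNL-G-F mice, 11 other genes in WT mice, and 2 and 18 for the difference of the treatment effects. The shares of all genes were 10.8%, 11.4% and 14.8%. The DESeq2 Wald test on all libraries called 1 of the 10 genes and 1 other gene for the treatment in AppNL-G-F mice, 1 other gene in WT mice and 3 other genes for the difference of effects, and on the compared groups only 2 other genes in WT mice. Over all genes, these fits called 125, 84 and 249 of 29173 genes, and 139 of 27200 on the compared groups only. Without a filter, 1 other gene was called in WT mice and 1 for the difference, beside 12 and 107 of 29173 genes. For the strain difference after veh, 16 other genes were called with the astrocyte score as a covariate, and 16 with the 2 veh-treated libraries of the highest marker sums left out, an alternative added after seeing the data. The cause of these moves was not tested.

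The covariate turned the sign of 5 values, none of them called: *Gstm1* between strains after BRICHOS (-0.12) and for treatment in WT mice (-0.0036), *Prdx2* for treatment in AppNL-G-F mice (0.019), and *Prdx4* (-0.11) and *Gpx1* (0.0035) for the difference of effects. Leaving out the 2 libraries turned *Prdx2* (0.046) and *Prdx6* (0.041) for treatment in AppNL-G-F mice and *Gpx1* for the difference (0.071). Leaving out 1 library gave 0 to 2 of the 10 genes and 0 to 2 other genes for the treatment in AppNL-G-F mice, and 0 to 1 and 0 to 2 for the difference of effects, each upper value without veh-treated AppNL-G-F mouse 3. Values that changed sign when 1 library was left out ranged from -0.0080 to 0.21 for *Prdx5* and from -0.058 to 0.40 for *Gstm1* between strains after BRICHOS. For treatment in AppNL-G-F mice, they ranged from -0.078 to 0.018 for *Prdx2*, -0.058 to 0.0014 for *Prdx3* and -0.021 to 0.11 for *Prdx5*. For the difference of effects, they ranged from -0.035 to 0.048 for *Prdx3*, -0.0034 to 0.15 for *Prdx4*, -0.15 to 0.049 for *Gpx1* and -0.016 to 0.12 for *Txn1*.

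The *Prdx3* call after veh was also lost with DESeq2 on all libraries (adjusted p = 0.0728) and on the compared groups only (adjusted p = 0.158), without a filter (edgeR adjusted p = 0.169), with a replicate block (0.0526), with the covariate (0.514) and with the 2 libraries left out (0.292). After BRICHOS it was lost with DESeq2 on the compared groups only (adjusted p = 0.115), without a filter (edgeR adjusted p = 0.0944) and with the covariate (0.0521). DESeq2 on the compared groups only called *Prdx5* after veh (adjusted p = 0.0249). Samples that share a replicate number come from different mice, and the mean correlation of their deviations was 0.124, 0.0808, 0.0801 and 0.143 in the 4 comparisons, with no comparison above 0.1 in every pair, so the numbers were not taken to pair the samples. The replicate block left 7 of the 10 genes called after veh and 7 after BRICHOS, beside 38.8% and 44.2% of all genes, and none for the treatment. With 3 mice a group, an exact permutation test cannot go below p = 0.1 for a single gene.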
